A study of Mus musculus with 12 samples.

Results

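Liver genes were compared between 6 mice labelled Rela and Stat3 knockout and 6 wild-type mice, with dextran sodium sulfate (DSS) treatment as a blocking factor, and the genes described here are those in which all 6 livers of one genotype lay above all 6 livers of the other, treated or not. Of 13853 autosomal genes that passed the filter on low counts, 69 met this rule, which is 0.498% of the genes tested. 24 were higher (0.173%) and 45 lower (0.325%) in the livers labelled knockout. The 12 libraries of rRNA-depleted liver RNA, all from mice on a C57BL/6 background, fell into 4 groups of 3: wild-type mice on water, wild-type mice given 2% DSS in the drinking water for 6 days to cause colitis, and mice labelled Rela and Stat3 knockout on water or on the same DSS course. The study names the knockout mice RelaΔhepStat3Δhep. In its methods the deletion is described as specific to hepatocytes, with a Cre recombinase under the albumin promoter. The animals it calls wild-type are described there as littermates without Cre that carry floxed Rela and Stat3 alleles. The name wild-type is kept here. Whether the other cells of the liver keep Rela and Stat3 was not tested here. The labels give no age, sex or time of day of collection. The study's methods give an age range in weeks and list male and female mice, without a sex for each liver. All levels below are CPM, counts scaled by TMM to a library size common to all livers, and compare one gene between livers and not one gene with another.

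Rela is the transactivating subunit of NF-κB and Stat3 the transcription factor that acts downstream of IL-6 family cytokines, and in hepatocytes both drive the acute-phase response, in which the liver turns to the synthesis of secreted defence proteins. Secreted proteins enter the endoplasmic reticulum (ER), are folded and glycosylated there and pass through the Golgi apparatus. The liver also carries a strong circadian clock, in which the nuclear receptors Nr1d1 and Nr1d2 repress the activator Arntl and clock output genes.

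The estimated counts summed to between 65879529 and 82850098 per library, and the TMM factors ran from 0.758, in the second DSS-treated wild-type liver, to 1.12. Rela, which lies at chr19:5637483-5648130 (mm9), was at 39.8 to 55.5 CPM in wild-type livers and at 39.5 to 62.3 CPM in the livers labelled knockout, so the count of the whole gene did not set the genotypes apart (log2 fold change 0.04, SE 0.13, edgeR adjusted p = 0.971). Stat3 was at 45.7, 138 and 87.5 CPM in untreated and at 63.2, 329 and 307 CPM in DSS-treated wild-type livers. In the livers labelled knockout it was at 45.9, 46.7 and 49.7 CPM without and at 43.0, 58.0 and 74.8 CPM with DSS. The Stat3 groups overlapped, and the difference of -1.46 on the log2 scale (SE 0.41) had an edgeR adjusted p of 0.345. DESeq2 called it (adjusted p = 0.0108), and no other of the 24 alternatives did, with adjusted p of up to 0.704. Counts over a whole gene do not show a deleted exon, and the genotype is therefore given as labelled throughout. The study itself characterized the strain by genotyping and by western blots of total RelA and Stat3, which were not examined here. The defining hepatocyte gene Alb was at 62876 to 150212 CPM in the 12 livers. Xist was at 902 to 1283 CPM in 4 libraries, the third untreated wild-type liver and all 3 DSS-treated livers labelled knockout, and at or under 29.0 CPM in the other 8. The Y-linked genes Ddx3y, Uty, Kdm5d and Eif2s3y summed to 175 to 241 CPM in those 8 and to at most 0.12 CPM in the 3 DSS-treated labelled livers. The third untreated wild-type liver had both signals, with 30.1 CPM of these genes beside 1143 CPM of Xist, and so stood apart from all the others. Without it 7 autosomal genes were called between genotypes, 6 of them among the 69. DSS treatment within the labelled genotype and the sex-linked difference cannot be told apart.

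With treatment as a block, 11 of 13853 autosomal genes (0.0794%) differed between genotypes by the edgeR test adjusted for all rows (threshold 0.05). In the livers labelled knockout 4 (0.0289%) were higher and 7 (0.0505%) lower. All 7 lower genes were among the 69, namely Nr1d1, Derl3, Gnat1, Fkbp11, Tenc1, Pgm3 and Phf17, and so was 1 of the 4 higher genes, Cd207. The remaining 3 higher genes, Ppard, Cry1 and Ppp1r3b, passed the test although their genotypes overlapped. Ppard and Ppp1r3b were each called in 5 of the 12 fits without 1 library, with edgeR adjusted p up to 0.0753 and 0.0876. Ppard was not called with high Xist as a covariate (0.0820). Neither was called without the libraries with high Xist (0.407 and 0.207). That fit holds no DSS-treated liver labelled knockout, so its genotype difference compares untreated livers only. Since the rule and the edgeR test read the same counts, passing both is not independent support. DESeq2 called 133 autosomal genes (0.96%), 32 of them among the 69. At an unadjusted p under 0.05 in edgeR the share over all genes was 8.93% (3.96% higher and 4.97% lower), and 67 of the 69 met it. The differences were mostly small: the median absolute log2 fold change was 0.55 over the 69 and 0.15 over all autosomal genes tested, 16 exceeded 1 and 31 stayed under 0.5. The gap between the nearest livers of the 2 genotypes had a median of 1.05-fold, and it reached 1.2-fold in 6 genes, Nr1d1, 1810013D15Rik, Fkbp11, Gnat1, Cd207 and Lnx1.

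**Figure D1:**
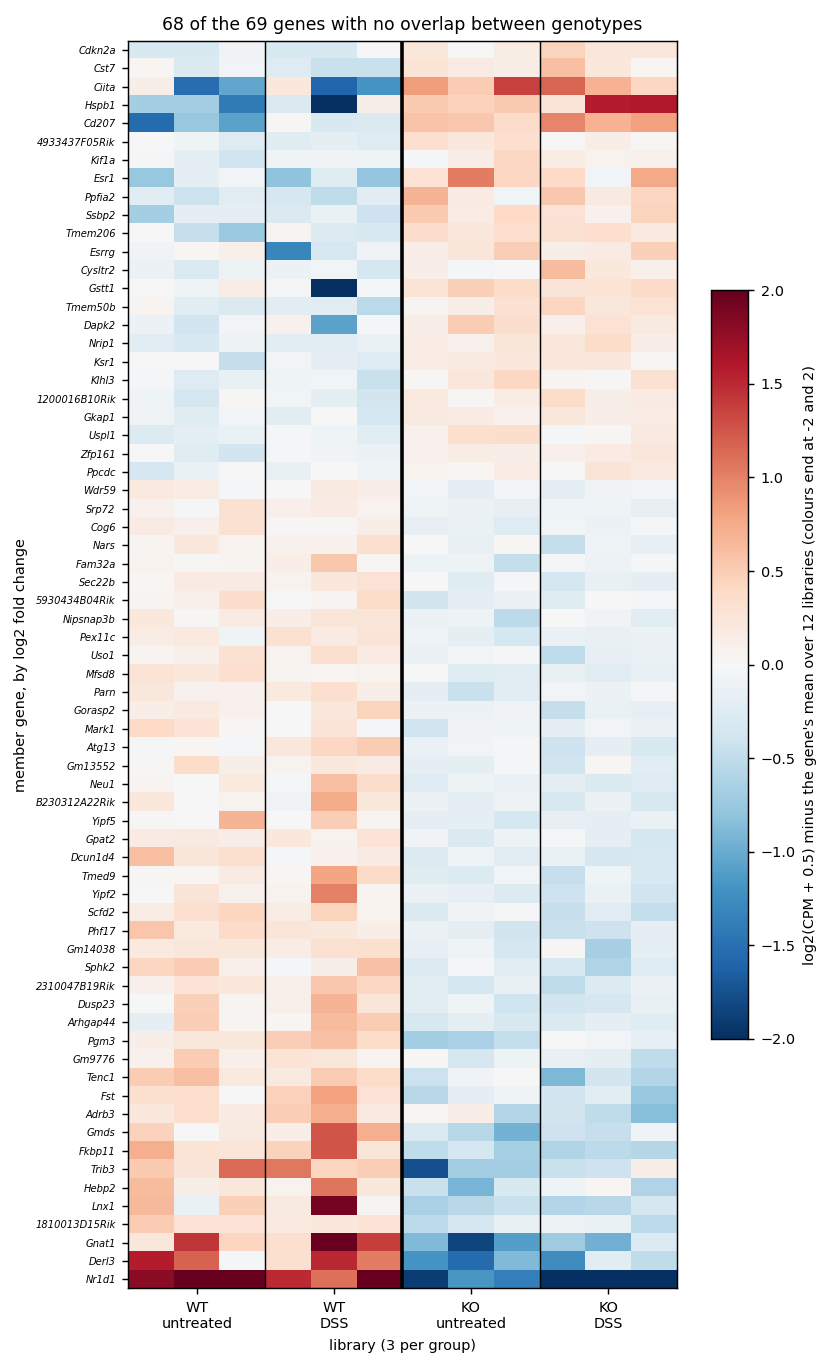
Heatmap of 68 of the 69 genes (rows, ordered by log2 fold change between genotypes) in the 12 libraries (columns, 3 per group; KO stands for the livers labelled Rela and Stat3 knockout), coloured by log2(CPM + 0.5) minus the mean of the gene over the 12 libraries. In each of the 24 upper rows the wild-type livers lie below the labelled livers and in the rows below them above, with Nr1d1 at the bottom; in many rows some livers fall on the other side of the mean of the gene.

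The membership depended on the scaling of the libraries. With library totals in place of TMM, 55 genes had no overlap, 30 higher and 25 lower, and 32 of the 69 were among them. The 37 that then overlapped comprised 28 lower and 9 higher genes. With the size factors of DESeq2, 68 genes had no overlap, 25 higher and 43 lower, 58 of them shared with the 69. 30 genes, 13 higher and 17 lower, stood apart under all 3 scalings, and these included Nr1d1, Derl3, Gnat1, Fkbp11, Pgm3 and Cd207 but not Tenc1 or Phf17. On library totals edgeR called 7 autosomal genes, and Derl3, Tenc1, Pgm3 and Phf17 lost their call, at adjusted p of 0.0512, 0.153, 0.141 and 0.214. Cry1 also lost its call, at 0.0998. All 69 kept the sign of their fold change on library totals, which moved the median log2 fold change of all autosomal genes from -0.0031 to 0.071. The smallest absolute log2 fold change among the 69 was 0.21. A shift of this size could turn no sign, so nothing is read from the kept signs.

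Nr1d1, the heme-binding nuclear receptor that represses clock genes (ENSMUSG00000020889, chr11:98629246-98636647, minus strand), was the gene with the largest difference among the 69. It was at 71.5, 108 and 97.6 CPM in untreated and at 57.5, 43.3 and 91.3 CPM in DSS-treated wild-type livers. In the livers labelled knockout it was at 4.98, 8.61 and 7.45 CPM without and at 4.06, 3.15 and 4.18 CPM with DSS. The lowest wild-type liver thus lay 5.03-fold above the highest labelled liver. Mean levels were 78.2 ± 25.1 and 5.41 ± 2.14 CPM (SD, n = 6), a 14.5-fold difference (log2 fold change -3.90, SE 0.21, edgeR adjusted p = 1.48e-06). It passed the threshold with each library left out in turn, with an edgeR adjusted p of at most 3.98e-05. Without the libraries with high Xist it did not (log2 fold change -3.66, edgeR adjusted p = 0.0719). Nr1d1 overlaps Thra, the thyroid hormone receptor gene on the opposite strand, by 1075 bases, and Thra differed by -0.17 on the log2 scale (SE 0.11). Whether the counting used strand is not given in the sources used here, and the reads of such a pair cannot then be told apart.

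The clock genes were also read as a list. Of 19 tested genes of the core clock and its output, Cry1 was called higher and Nr1d1 lower, and the median log2 fold change was 0.11 (0.28 without and -0.51 with DSS) against -0.0031 over all autosomal genes. Cry1, a repressor of the clock activators, was at 5.87 to 24.5 CPM in wild-type and at 24.3 to 59.6 CPM in the labelled livers (log2 fold change 1.44, SE 0.23, edgeR adjusted p = 0.046), so that the genotypes overlapped by a narrow margin. Cry1 was called in 2 of the 12 fits without 1 library, those without the first or the second DSS-treated wild-type liver (edgeR adjusted p from 0.0155 to 0.147 over the 12), and not without the 4 libraries with high Xist (log2 fold change 1.45, adjusted p = 0.405). In the model of the 4 groups and on library totals Cry1 was not called either, at edgeR adjusted p of 0.0521 and 0.0998. Nr1d2, the close relative of Nr1d1, had a log2 fold change of -1.41 (SE 0.31, edgeR adjusted p = 0.215). Dbp, a clock output factor, had one of -2.99 (SE 0.63, edgeR adjusted p = 0.215). Arntl, the activator that Nr1d1 represses, was at 8.90 to 30.0 CPM against 14.3 to 48.1 CPM (log2 fold change 0.78, SE 0.27, edgeR adjusted p = 0.448). Per1, Per2, Clock and Cry2 differed by 0.66, 0.50, 0.11 and -0.15 on the log2 scale with adjusted p from 0.841 to 0.916. Only Nr1d1 of the 19 had no overlap between genotypes. Sphk2, a sphingosine kinase among the 45 lower genes (28.3 to 41.7 CPM in the labelled livers against 42.3 to 65.1 CPM, log2 fold change -0.59, SE 0.12), overlaps the opposite strand genes Rpl18 by 2546 and Dbp by 689 bases. Rpl18, a ribosomal protein gene with mean levels of 118 and 109 CPM, had a log2 fold change of -0.13 (SE 0.12). Reads of these 3 genes carry the same limit.

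**Figure D2:**
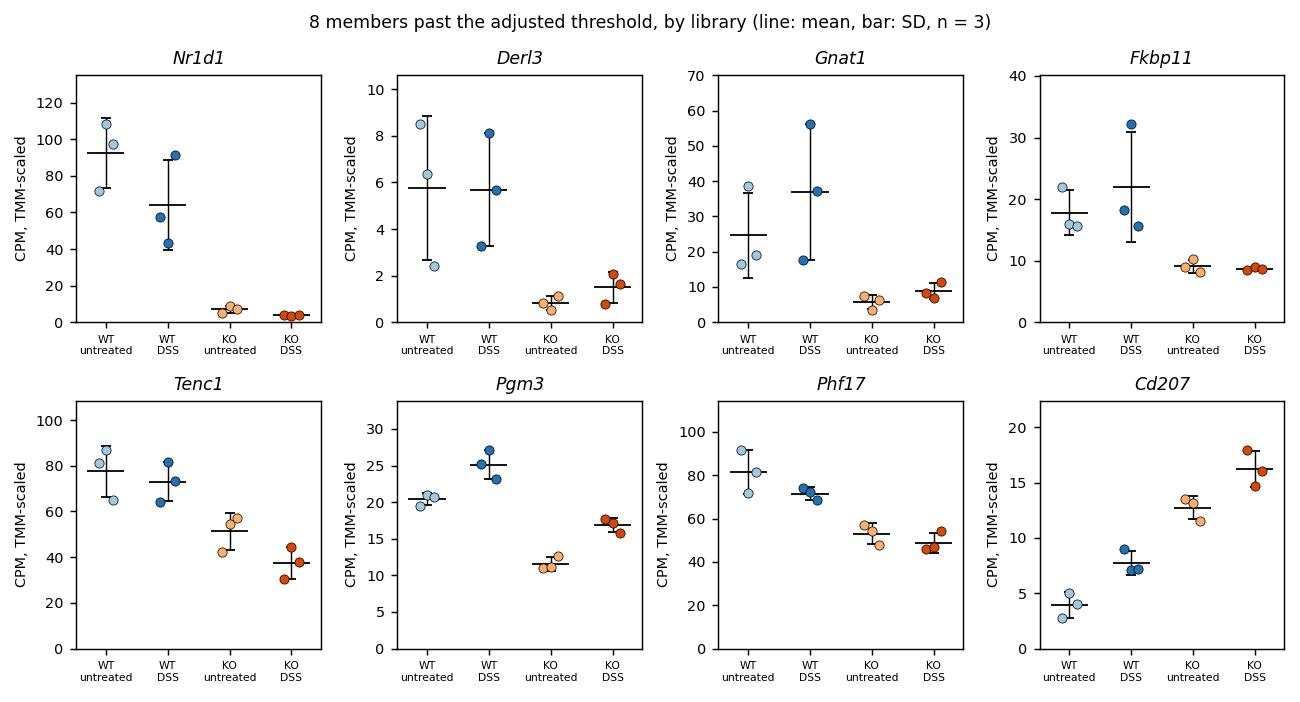
CPM, scaled by TMM, of the 8 genes with no overlap and an edgeR adjusted p under 0.05, by library (points, 3 per group), with the group mean (line) and SD (bar); KO stands for the livers labelled Rela and Stat3 knockout. Nr1d1 falls between 3.15 and 8.61 in all 6 labelled livers, while Cd207 lies between 11.6 and 17.9 in them and at or under 9.02 in wild-type livers.

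Genes for the handling of proteins in the ER were among the lower genes. Roles were assigned to groups after the values had been seen, so the counts per group describe these 69 genes and are not a test. Derl3, a membrane protein that passes misfolded proteins out of the ER for degradation (chr10:75356143-75358686), was at 8.51, 6.37 and 2.43 CPM in untreated and at 3.28, 8.13 and 5.66 CPM in DSS-treated wild-type livers. In the labelled livers it was at 0.837, 0.538 and 1.13 CPM and, with DSS, at 0.784, 2.08 and 1.64 CPM. The third untreated wild-type liver came closest to the labelled group. The difference was 4.90-fold (log2 fold change -2.34, SE 0.37, edgeR adjusted p = 0.0348). It was called in 2 of the 12 fits that left out 1 library, in which the adjusted p ran from 0.0188 to 0.149, and it had an adjusted p of 0.061 in limma-voom.

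Fkbp11, a prolyl isomerase that assists folding in the ER of secretory cells (chr15:98554804-98558629), was at 21.9, 15.9 and 15.6 CPM in untreated and at 18.2, 32.2 and 15.6 CPM in DSS-treated wild-type livers. All 6 labelled livers were tightly placed, at 9.05, 10.2 and 8.11 CPM and, after DSS, at 8.44, 8.95 and 8.67 CPM. Means were 19.9 ± 6.49 and 8.91 ± 0.723 CPM (SD, n = 6; log2 fold change -1.15, SE 0.17, edgeR adjusted p = 0.0242). The call held in 4 of the 12 fits without 1 library, with adjusted p from 0.00631 to 0.0914. Srp72, a subunit of the signal recognition particle that brings new chains to the ER, was at 112 to 140 against 101 to 107 CPM (log2 fold change -0.24, SE 0.08, edgeR adjusted p = 0.426), and its genotypes overlapped on library totals.

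Promoters are shown for Derl3 and Fkbp11, the called genes of this group, for Nr1d1, which carries the largest difference, and for the Golgi gene Gorasp2 as 1 example of a STAT match. The choice was made after the motifs had been found, and other genes not shown also hold matches, such as Scfd2 (STAT and E-box) and Uso1 (E-box). Each window runs from 250 bases before to 50 after the RefSeq gene start (GRCm38.p6), 5′ to 3′ on the strand of the gene. Capitals mark the matches. The searches were for TTCNNNGAA (STAT), the κB consensus, CACGTG (E-box), TTATGTAA (D-box), AA, any base and TAGGTCA (RORE, the site of Nr1d1 and ROR receptors), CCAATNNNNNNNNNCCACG (ER stress element) and TGACGTGG (unfolded protein response element), on both strands. Derl3 lies at chr10:75893148-75893447 on the plus strand and holds an E-box 168 bases before the start and, 156 bases before it, an ER stress element on the minus strand with a κB match inside it. Gorasp2, at chr2:70661259-70661558 on the plus strand, holds a STAT match 144 bases before the start. Fkbp11, at the second of its windows, chr15:98727578-98727877 on the minus strand, holds an E-box at base 21 after the start. The Nr1d1 window, chr11:98775328-98775627 on the minus strand, holds none of these letters.
Derl3: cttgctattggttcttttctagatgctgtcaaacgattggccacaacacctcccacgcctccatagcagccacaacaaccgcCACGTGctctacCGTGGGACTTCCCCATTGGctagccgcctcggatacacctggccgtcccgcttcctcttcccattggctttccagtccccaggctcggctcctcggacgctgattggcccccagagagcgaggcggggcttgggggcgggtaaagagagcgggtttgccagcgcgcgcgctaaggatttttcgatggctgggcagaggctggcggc
Gorasp2: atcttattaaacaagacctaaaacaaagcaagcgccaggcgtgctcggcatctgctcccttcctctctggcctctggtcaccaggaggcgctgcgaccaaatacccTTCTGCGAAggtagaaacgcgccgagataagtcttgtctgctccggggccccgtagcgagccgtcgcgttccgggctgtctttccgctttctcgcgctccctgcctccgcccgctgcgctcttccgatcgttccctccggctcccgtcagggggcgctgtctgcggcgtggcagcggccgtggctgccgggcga
Fkbp11: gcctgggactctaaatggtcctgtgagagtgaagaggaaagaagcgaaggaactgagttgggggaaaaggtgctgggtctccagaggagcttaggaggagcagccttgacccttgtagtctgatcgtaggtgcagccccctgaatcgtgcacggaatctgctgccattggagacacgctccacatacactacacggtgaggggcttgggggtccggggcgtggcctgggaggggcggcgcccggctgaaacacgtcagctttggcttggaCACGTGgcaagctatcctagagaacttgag
Nr1d1: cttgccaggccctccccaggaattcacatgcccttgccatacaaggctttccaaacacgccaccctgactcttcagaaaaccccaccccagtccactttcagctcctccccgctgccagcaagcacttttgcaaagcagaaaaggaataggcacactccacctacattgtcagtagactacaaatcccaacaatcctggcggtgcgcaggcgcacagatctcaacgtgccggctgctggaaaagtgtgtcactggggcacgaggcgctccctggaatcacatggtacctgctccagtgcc

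Promoters were matched for 58 of the 69 genes, and the share with each motif was read against 25748 autosomal genes with windows of the same length. These include genes that did not pass the filter on low counts, so the shares do not come from like sets of genes. The STAT motif was in 4 of 58 (6.9%, against 9.64% of all), the κB consensus in 4 of 58 (6.9% against 5.22%) and the E-box in 9 of 58 (15.5% against 8.11%). The RORE was in 1 (1.72% against 0.268%) and the D-box in none (0% against 1.13%). The ER stress element, searched after the values had been seen, was in Derl3 alone (1.72% against 0.132%), and the unfolded protein response element in none of the 58 (0% against 0.719%). 8 of the 9 E-boxes were in lower genes, of which 37 had a promoter. These are counts of letters and not of bound sites.

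A separate list for ER stress and the unfolded protein response did not hold Derl3 or Fkbp11. In it the genotypes overlapped in all but 1 of 22 tested genes. None of the 22 passed the adjusted threshold in edgeR. At an unadjusted p under 0.05, 8 were lower and 1 higher, where 4.97% and 3.96% of all autosomal genes were. 19 log2 fold changes were negative, with a median of -0.36 against -0.0031 over all autosomal genes. The exception to the overlap was Trib3, a pseudokinase that stress of the ER or lack of amino acids induces, which belongs to the 69. Trib3 was at 7.57 to 14.2 CPM (median 9.06) in wild-type livers and at 1.48 to 6.85 CPM (median 4.04) in the labelled livers, with a log2 fold change of -1.39 (SE 0.27, edgeR adjusted p = 0.119). With high Xist as a covariate its adjusted p was 0.0431, and on library totals its genotypes overlapped. Sdf2l1, an ER protein of the chaperone network, had a log2 fold change of -1.04 (SE 0.30, edgeR adjusted p = 0.345), Hyou1, an ER chaperone, one of -0.63 (SE 0.22, edgeR adjusted p = 0.440) and the central chaperone Hspa5 one of -0.37 (SE 0.19, edgeR adjusted p = 0.686). The stress factor Atf3 had a positive value, 0.90 (SE 0.39, edgeR adjusted p = 0.595).

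The next 8 lower genes were placed together by their known roles at the Golgi after the values had been seen, so that nothing is read from their number. Their log2 fold changes lay between -0.55 and -0.25 with a median of -0.40, and none passed the adjusted threshold (edgeR adjusted p from 0.118 to 0.375). Tmed9, a cargo receptor of transport vesicles, was at 64.1, 64.9 and 70.4 CPM in untreated and at 64.2, 109 and 82.3 CPM in DSS-treated wild-type livers, against 53.5, 52.2 and 60.8 CPM and 45.9, 59.3 and 51.0 CPM in the labelled livers. The second DSS-treated wild-type liver was the highest for this gene. Uso1, which tethers vesicles to the Golgi, was at 149 to 178 against 100 to 139 CPM, and Gorasp2, which links Golgi stacks, at 93.1 to 129 against 67.4 to 90.1 CPM. Sec22b, a fusion protein of ER vesicles, was at 59.0 to 69.8 against 44.8 to 57.8 CPM. Yipf2, Yipf5, the Golgi tether subunit Cog6 and Scfd2 had log2 fold changes of -0.55, -0.44, -0.25 and -0.55. Yipf2 and Yipf5 alone of the 8 stood apart under all 3 scalings.

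Pgm3 and Gmds act in the synthesis of nucleotide sugars, the donors of glycosylation, of which no other genes were looked at as a list, and both stood apart under all 3 scalings. Pgm3, a mutase in the synthesis of UDP-N-acetylglucosamine (chr9:86446083-86465449), was at 19.4, 21.0 and 20.8 CPM in untreated and at 25.2, 27.1 and 23.1 CPM in DSS-treated wild-type livers. The labelled livers were at 11, 11.1 and 12.7 CPM and, with DSS, at 17.7, 17.1 and 15.8 CPM, so both genotypes were higher after DSS and the groups remained apart (log2 fold change between genotypes -0.69, SE 0.09, edgeR adjusted p = 0.0108). The call was lost without the first untreated labelled liver or the second untreated wild-type liver, at an adjusted p of up to 0.0599. Pgm3 overlaps Dopey1 on the opposite strand by 3331 bases, and Dopey1 had a log2 fold change of -0.27 (SE 0.09). Gmds, the first enzyme from GDP-mannose to GDP-fucose, was at 2.36 to 6.38 against 0.999 to 2.25 CPM (log2 fold change -1.13, SE 0.23, edgeR adjusted p = 0.154).

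4 genes of the lysosome and of autophagy were lower as well, with log2 fold changes between -0.42 and -0.21 and edgeR adjusted p from 0.264 to 0.493. Neu1, the lysosomal sialidase, was at 38.8 to 59.9 CPM in wild-type and at 32.2 to 36.7 CPM in the labelled livers. Mfsd8, a lysosomal membrane protein, was at 14.5 to 18.1 against 11.8 to 14.1 CPM, and Wdr59, a regulator of amino acid sensing at the lysosome, at 16.0 to 18.8 against 14.4 to 15.8 CPM. Atg13, which starts autophagosome formation, was at 58.5 to 85.1 against 44.5 to 57.9 CPM. Of these, Neu1 alone stood apart under all 3 scalings.

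The other lower genes that passed the adjusted threshold were Gnat1, Tenc1 and Phf17. Gnat1, the alpha subunit of rod transducin (chr9:107576808-107581923), was at 16.5, 38.6 and 19 CPM in untreated and at 17.6, 56.2 and 37.3 CPM in DSS-treated wild-type livers, against 7.36, 3.57 and 6.23 CPM and 8.30, 6.94 and 11.4 CPM in the labelled livers. The wild-type livers spread over a wider range than the labelled ones (log2 fold change -2.08, SE 0.31, edgeR adjusted p = 0.0295), and the call held in 1 of the 12 fits without 1 library, with adjusted p from 0.00681 to 0.126. In limma-voom its adjusted p was 0.0606. Tenc1, tensin 2, an adaptor at focal adhesions, had means of 75.4 ± 9.27 and 44.4 ± 10.1 CPM (SD, n = 6; log2 fold change -0.78, SE 0.13, edgeR adjusted p = 0.0477; called in 1 of 12 such fits). Phf17, a scaffold of a histone acetyltransferase complex, had means of 76.5 ± 8.50 and 51.0 ± 4.79 CPM (SD, n = 6; log2 fold change -0.58, SE 0.09, edgeR adjusted p = 0.0250; called in 2 of 12). Without single libraries the adjusted p ran from 0.0321 to 0.159 for Tenc1 and from 0.0455 to 0.0914 for Phf17.

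Further lower genes did not pass the adjusted threshold. Fst, the activin inhibitor follistatin, was at 6.32 to 11.5 against 3.55 to 5.94 CPM (log2 fold change -0.79, SE 0.16, edgeR adjusted p = 0.171). Adrb3, a beta-adrenergic receptor, was at 3.97 to 6.10 against 1.71 to 3.83 CPM. Lnx1, a ubiquitin ligase, was at 0.902 to 1.92 CPM in 5 wild-type livers and at 5.30 CPM in the second DSS-treated one, against 0.478 to 0.720 CPM in the labelled livers (log2 fold change -1.75, SE 0.39, edgeR adjusted p = 0.215). Dcun1d4, a promoter of cullin neddylation, was at 42.1 to 65.4 against 34.2 to 40.4 CPM (log2 fold change -0.46, SE 0.09, edgeR adjusted p = 0.154). Parn, a deadenylase, was at 20.8 to 24.7 against 14.3 to 19.3 CPM. 1810013D15Rik and Hebp2 were rare transcripts, at 0.321 to 0.526 and 0.503 to 1.5 CPM in wild-type livers, with no count in 2 and in 1 of the labelled livers. Fam32a, Nars, Nipsnap3b, Mark1, Gpat2, Dusp23, Arhgap44, Pex11c, 2310047B19Rik, 5930434B04Rik, B230312A22Rik, Gm9776 and the pseudogenes Gm13552 and Gm14038 completed the lower genes, with log2 fold changes from -0.73 to -0.28.

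Among the 24 higher genes, 4 act in immune cells. Cd207, the lectin langerin of dendritic cells (chr6:83621201-83627851), was at 2.72, 5.04 and 4 CPM in untreated and at 9.02, 7.08 and 7.17 CPM in DSS-treated wild-type livers. The labelled livers were at 13.5, 13.1 and 11.6 CPM and, with DSS, at 17.9, 14.7 and 16.1 CPM. The untreated labelled livers thus lay above the DSS-treated wild-type livers as well (means over 6 livers 5.84 ± 2.33 and 14.5 ± 2.27 CPM, SD; log2 fold change 1.38, SE 0.17, edgeR adjusted p = 0.0106). The call was made in all 12 fits without 1 library, with adjusted p of at most 0.0402. Without the libraries with high Xist it was not made (log2 fold change 1.73, edgeR adjusted p = 0.175). In bulk tissue, more cells of a type and more RNA per cell cannot be told apart.

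Ciita, the master activator of MHC class II genes, was at 6.61, 1.78 and 2.71 CPM in untreated and at 7.12, 1.69 and 2.40 CPM in DSS-treated wild-type livers, and at 11.3, 8.86 and 16.5 CPM and 14.3, 10.1 and 8.31 CPM in the labelled livers (log2 fold change 1.63, SE 0.39, edgeR adjusted p = 0.277). The first library of each wild-type group was the highest of its group. DESeq2 gave it an adjusted p of 0.00243. In the list for antigen presentation all 8 tested genes had positive log2 fold changes (median 1.03, against -0.0031 over all autosomal genes). At an unadjusted p under 0.05 in edgeR 7 of them were higher, where 3.96% of all autosomal genes were. None passed the adjusted threshold in edgeR, and Ciita was the gene of the 8 whose genotypes did not overlap. The class II genes H2-Aa, H2-Ab1 and H2-Eb1 had log2 fold changes of 1.28, 1.29 and 1.32 with standard errors of 0.43, 0.42 and 0.55 and edgeR adjusted p of 0.446, 0.419 and 0.569. Cst7, a cystatin of cytotoxic and myeloid cells, and Cysltr2, a leukotriene receptor, had log2 fold changes of 2.19 (SE 0.78) and 0.58 (SE 0.23), Cst7 at no more than 0.528 CPM in any liver.

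Marker lists of liver immune cells were read beside these genes. All 7 markers of T and NK cells had positive log2 fold changes (median 0.46), none at an unadjusted p under 0.05, and the summary for 6 Kupffer cell markers was a median of 0.082. Of 6 B cell markers 4 were negative (median -0.023), as were 2 of 4 monocyte markers (median 0.043). The medians within treatments differed in sign: in untreated and DSS-treated livers they were -0.42 and 1.33 for T and NK cells, -0.15 and 0.39 for Kupffer cells, -1.18 and 1.06 for B cells and -0.82 and 0.55 for monocytes, a difference that was not tested. The 5 tested neutrophil markers were all negative (median -1.91 over both treatments, -2.43 without and -1.36 with DSS). At an unadjusted p under 0.05 in edgeR 3 of them were lower, where 4.97% of all autosomal genes were. The untested Camp and Ly6g had a median of 0 CPM in both genotypes. None of the marker genes was among the 69. The part of cell composition in the results for Cd207, Ciita, Cst7 and Cysltr2 was not tested.

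**Figure D3:**
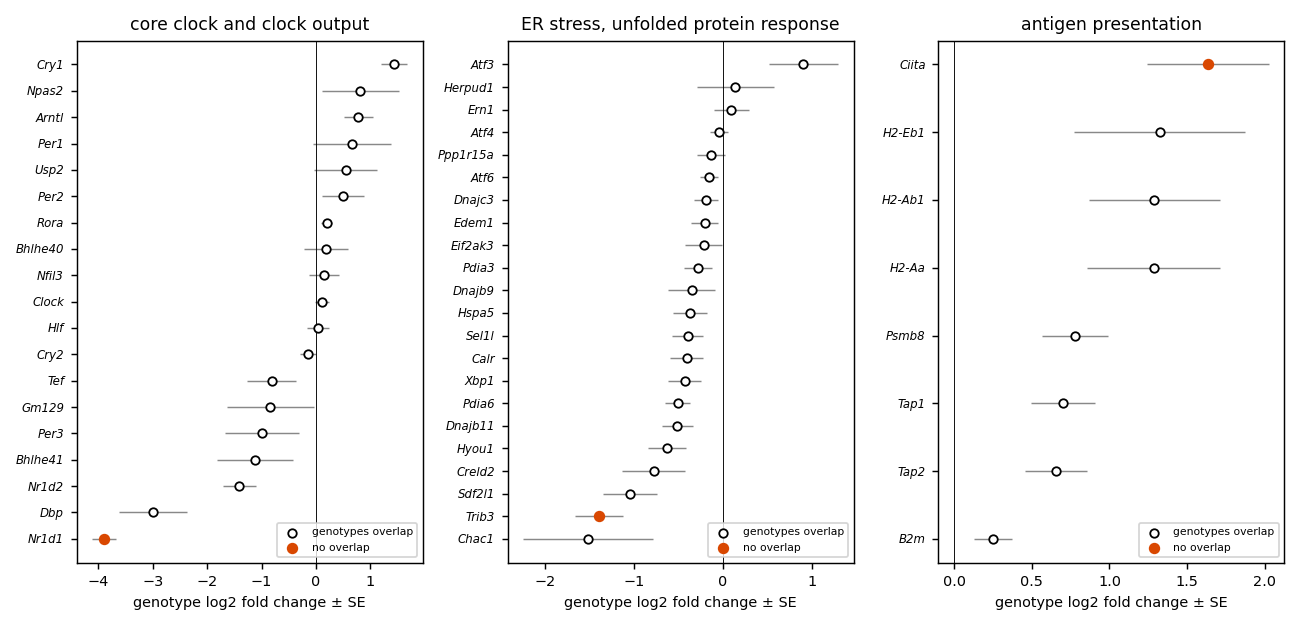
Log2 fold change between genotypes with its SE (labelled Rela and Stat3 knockout minus wild-type, edgeR, treatment as a block) for all tested genes of 3 lists; filled points mark genes whose genotypes do not overlap. Nr1d1, Trib3 and Ciita are the filled points, at -3.90, -1.39 and 1.63.

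Of 4 genes grouped as nuclear receptors and their cofactors, Nr1d1 was lower, as described above, and Esr1, Nrip1 and Esrrg were higher. Esr1, the estrogen receptor alpha (chr10:5340927-5734948), was at 59.0, 88.7 and 96.5 CPM in untreated and at 57.6, 85.4 and 58.5 CPM in DSS-treated wild-type livers, against 124, 205 and 134 CPM and 133, 96.6 and 170 CPM in the labelled livers (log2 fold change 0.96, SE 0.18, edgeR adjusted p = 0.118). The second DSS-treated labelled liver almost met the third untreated wild-type liver, and with the DESeq2 size factors they overlapped. On library totals the adjusted p was 0.0255. Nrip1, a corepressor that binds Esr1 and other nuclear receptors, had a narrow spread, at 33.3 to 38.5 against 43.8 to 53.3 CPM (log2 fold change 0.41, SE 0.08, edgeR adjusted p = 0.118). Esrrg, an estrogen-related receptor of energy metabolism, was at 0.559 to 2.31 against 2.34 to 3.17 CPM (log2 fold change 0.63, SE 0.26, edgeR adjusted p = 0.567).

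The remaining 17 higher genes were of mixed function. Hspb1, a small heat-shock protein, was at 2.74 to 13.6 CPM in wild-type and at 15.0 to 39.1 CPM in the labelled livers (log2 fold change 1.63, SE 0.35, edgeR adjusted p = 0.215). Cdkn2a, a brake on the cell cycle, was at 0.124 to 0.342 CPM in the labelled livers and had no count in 4 of the 6 wild-type livers, with 8 counts at most in the other 2. Its fitted log2 fold change of 2.63 (SE 0.95) depends on the prior count. Gstt1, a glutathione transferase, was at 155 to 181 CPM in 5 wild-type livers and at 39.8 CPM in the second DSS-treated one, against 196 to 229 CPM in the labelled livers (log2 fold change 0.55, SE 0.26). Ppfia2 had a log2 fold change of 0.95, Ssbp2 one of 0.72 and Tmem206 one of 0.67. Klhl3 (0.36), Gkap1 (0.33) and Zfp161 (0.29) had smaller log2 fold changes and stood apart under all 3 scalings. 4933437F05Rik, Kif1a, Tmem50b, Dapk2, Ksr1, Uspl1, Ppcdc and 1200016B10Rik lay between 0.25 and 1.23 on the same scale.

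The genotype difference was also fitted within each treatment, which uses different livers for each value. In the model of all 4 groups, edgeR called 3 of the 69 genes without DSS, Nr1d1, Cd207 and Pgm3 (0.0722% of all autosomal genes were called), and 5 after DSS, Nr1d1, Cd207, Fkbp11, Tenc1 and Atg13 (0.339% of all). With only the 6 livers of one treatment in the fit, 4 of the 68 genes then tested were called without DSS, among 49 autosomal calls, and 1 of the 69, Nr1d1, after DSS, among 29. Nr1d1 had a log2 fold change of -3.72 (SE 0.30) without and of -4.08 (SE 0.31) with DSS. For Cd207 these values were 1.70 (SE 0.20) and 1.06 (SE 0.20), and for Atg13 they were -0.07 and -0.69. The absolute difference was larger after DSS in 40 genes and without it in 29. The rule required a difference in the same direction under both treatments, so neither the shared sign nor the number called beside that over all genes is a finding.

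**Figure D4:**
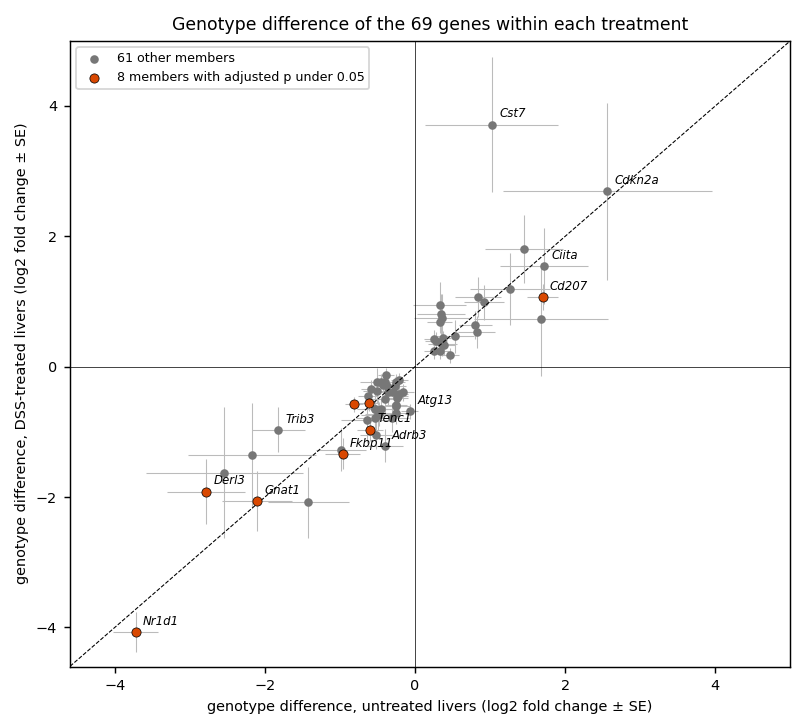
Log2 fold change between genotypes in untreated livers (x axis) and in DSS-treated livers (y axis) for the 69 genes, each with its SE in both directions; the dashed line marks equal values. All points lie in the 2 quadrants of equal sign, as the rule requires, and Nr1d1 lies at -3.72 and -4.08.

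No gene of the 69 was called for the interaction of genotype and treatment in edgeR (0.426% of all autosomal genes were), 3 had an unadjusted p under 0.05, where 16.6% of all had one, and DESeq2 called 1 (4.45% of all). Atg13 had the smallest adjusted p, 0.110, with an interaction of -0.62 (SE 0.16), followed by Adrb3 (-0.81, SE 0.35, edgeR adjusted p = 0.281) and Cd207 (-0.63, SE 0.28, edgeR adjusted p = 0.287). For the DSS response over both genotypes 2 of the 69 were called (2.9%, where 6.17% of all autosomal genes were), both higher after DSS: Pgm3 (log2 fold change 0.42, SE 0.09, edgeR adjusted p = 0.0137) and Cd207 (0.66, SE 0.16, edgeR adjusted p = 0.0342). The rule pools both treatments, which keeps out genes whose response to DSS, averaged over both genotypes, exceeds the genotype difference. Nothing is read from these shares.

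With high Xist as a covariate 7 autosomal genes were called between genotypes, 4 of them among the 69: Nr1d1 (edgeR adjusted p = 1.18e-05), Cd207 (0.00538), Pgm3 (0.00791) and Trib3 (0.0431). The 4 libraries with high Xist include all DSS-treated labelled livers. Without them 5 wild-type livers and 3 untreated labelled livers remained. The genotype difference in that fit compared the untreated livers alone, the labelled ones against the first and second wild-type ones. No autosomal gene was called in edgeR and 1279 had an unadjusted p under 0.05. Nr1d1 then had a log2 fold change of -3.66 (adjusted p = 0.0719), Cd207 1.73 (0.175), Pgm3 -0.78 (0.207), Derl3 -3.12 (0.139), Fkbp11 -1.03 (0.375), Gnat1 -2.25 (0.367), Tenc1 -0.69 (0.326) and Phf17 -0.60 (0.307).

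By position, the 69 genes lay on 18 of the 19 autosomes, with none of 481 tested genes on chromosome 19, which carries Rela. No gene of the 69 lay within 20 Mb of Rela. Around Stat3 there were 0 of 53 tested genes within 1 Mb, 1 of 182 (0.549%) within 5 Mb and 1 of 530 (0.189%) within 20 Mb, in both cases Nr1d1, where the share over all genes was 0.498%. Around Alb, whose promoter drives the Cre, there were 0 of 18 within 1 Mb, 1 of 56 (1.79%) within 5 Mb and 5 of 186 (2.69%) within 20 Mb, namely Dcun1d4, Scfd2, Lnx1, Srp72 and Uso1, all lower. The other 181 tested genes of that stretch had a median log2 fold change of 0.013, with 85 negative values, 4 lower and 3 higher at an unadjusted p under 0.05. 4 of the 5, from Dcun1d4 to Srp72 (chr5:73872241-77428962), lay among 19 tested genes (21.1%), a stretch chosen after the positions had been seen. The other 15 overlapped between genotypes, Clock and Kit among them. The 19 had a median log2 fold change of 0.028. Lnx1 overlaps Fip1l1 on the opposite strand by 6345 bases, and Fip1l1 had a log2 fold change of 0.19 (SE 0.12). 6 pairs of the 69 lay within 1 Mb of each other, among them Derl3 and Gstt1, which are 0.11 Mb apart and differed in opposite directions.

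**Figure D5:**
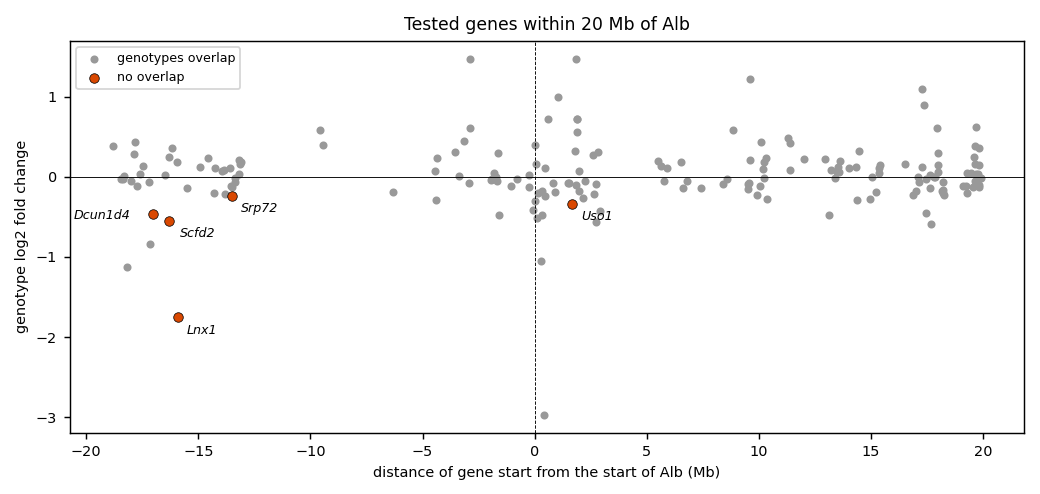
Log2 fold change between genotypes of the 186 tested genes within 20 Mb of Alb on chromosome 5, by distance of their start from that of Alb in Mb; filled points with names are the 5 genes whose genotypes do not overlap. All 5 lie below 0, and 4 of them lie to the left, among genes with values near 0.

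66 of the 69 genes were protein coding (95.7%, where 88.7% of all autosomal genes tested were), 2 were pseudogenes and 1 a processed transcript. 8 had a mean under 1 CPM (11.6% against 23.3%), and 5 had no count in at least 1 library. At the edge of the rule, the 3 genes with the smallest gap inside it were 1200016B10Rik, Pex11c and Arhgap44. 1200016B10Rik was at 26.1 CPM in the highest wild-type and in the lowest labelled liver, a gap of 1.00015-fold, and Pex11c, a peroxisomal membrane protein, had a gap of 1.00051-fold. Just outside the rule were Mcat, Sec24d and Pid1, whose nearest livers overlapped by under 1%, with log2 fold changes of -0.35, -0.47 and -0.47. Sec24d, a coat subunit of vesicles that leave the ER, was at 129 to 174 CPM in wild-type livers and at 79.8 to 129 CPM in the labelled ones.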

How the data were processed

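Paired-end libraries were made from rRNA-depleted RNA of 12 mouse livers. Per the study's methods and the submitters' processing notes, the authors trimmed reads with fastp, aligned them to mm9 with HISAT2 and counted with StringTie. The deposited values are estimated counts per gene as whole numbers, not normalized. The annotation used for counting is not given in the sources used here. Symbols and places are from GENCODE vM1 (mm9), which names 28677 of 51609 rows. Of the 17652 rows tested, 3232 had no place and 567 lay on sex chromosomes or the mitochondrion; both were left out of the rule, in which 6 and 5 of them had no overlap. Groups came from the labels, 3 livers each, and no columns were identical.

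The fits used edgeR 4.0.16 under R 4.3.3 (filterByExpr over the 4 groups, TMM, robust quasi-likelihood test, treatment plus genotype, 9 residual degrees of freedom, biological coefficient of variation 0.36). P-values were adjusted by the Benjamini-Hochberg method over all 17652 rows, with a threshold of 0.05. Livers without overlap were found on CPM scaled by TMM. Within-treatment and interaction values came from 1 model of the 4 groups. Promoters were those of RefSeq (GRCm38.p6), matched by symbol or synonym.

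The genes, lists and motifs were chosen with earlier results of these data known. Genes named by rule were Rela, Stat3 and Alb; up to 12 in each direction with the largest change among genes without overlap that passed the test at 1 CPM or more in the higher genotype; list genes without overlap; and the 3 nearest to the edge on each side. Other members were named after their values were seen, and 1 member is not reported here.

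Alternatives were limma-voom with quality weights (limma 3.58.1), DESeq2 1.42.0, its size factors, library totals (chosen after seeing the data), no filter, at least 10 counts, the 4-group model, single treatments, a replicate block, high Xist (over 100 CPM) as a covariate or left out, a minimum absolute log2 fold change of 1, a minimum gap of 1.2-fold, and leaving out each library. The steps were tested on simulated data. Deposited replicates are separate samples by label; where they are not separate mice, p-values measure only the spread between these samples.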

Additional observations from a re-analysis of the deposited data

Results flagged for a closer look

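2 of 38 groups of 6 livers, from 19 named genes in 2 genotypes, held a liver set apart from the other 5 by Dixon's test at the 95% level; chance flags about 5% of groups. Alb was at 150212 CPM in the first DSS-treated liver labelled knockout, above the 105270 to 113646 CPM of the other 5. Pex11c was at 20.7 CPM in the third untreated labelled liver, below the other 5, which were at 23.4 to 24.9 CPM.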

How the results depend on the processing

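The 11 autosomal calls between genotypes became 18 in the 4-group model, 133 with DESeq2 (32 of them among the 69 genes), 29 in DSS-treated livers only, 49 in untreated livers only, 7 with high Xist as a covariate, 7 on library totals, 7 with a minimum absolute log2 fold change of 1 and 0 without the libraries with high Xist; with single libraries left out they ran from 2 to 20 (2 without the first untreated labelled or the second untreated wild-type liver, 20 without the first DSS-treated wild-type liver), and every library but the second DSS-treated wild-type one moved the count by over 1.5 times. The interaction, called in 59 autosomal genes, was called in 616 with DESeq2, 0 with the Xist covariate, 107 with a replicate block and 16 to 192 without single libraries. High Xist marks all DSS-treated labelled livers and otherwise only the third untreated wild-type liver. The covariate thus nearly repeats the interaction term, and nothing is read from the 0. The DSS response, 855 calls, gave 1585 with DESeq2, 550 with the Xist covariate, 15 without the libraries with high Xist and 429 to 1117 without single libraries. Without the libraries with high Xist no DSS-treated labelled liver remained. The DSS response was then that of wild-type livers, and the genotype difference that of untreated livers. The 69 genes without overlap became 6 with a minimum gap of 1.2-fold; leaving out livers eases the rule, which 86 to 153 genes then met without single libraries and 1331 without the libraries with high Xist. Of the genes in lists, 3 were called, against 25 with DESeq2. Rela reversed to -0.020 in untreated livers only and -0.10 without the libraries with high Xist, and ran from -0.055, without the second DSS-treated labelled liver, to 0.11 without single libraries. Over all named genes, Rela included, and 4 list medians, 374 alternative values kept direction and side of the threshold, 88 lost the threshold, 7 gained it and 3 reversed; the cause was not tested. Livers with the same replicate number did not deviate together (18 pairs, correlations from -0.09 to 0.17, 1 over 0.1), so the numbers do not pair them, and a replicate block gave 11 autosomal calls between genotypes, 8 of them shared with the 11 above, with Derl3, Gnat1 and Phf17 not called (edgeR adjusted p = 0.0811, 0.0811 and 0.0577) and Ciita called (0.0440). Low counts limit Cdkn2a, Cst7, Kif1a, Hebp2 and 1810013D15Rik, which had no count in some livers.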
